A study of Homo sapiens with 6 samples.

Results

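Complex I, the NADH:ubiquinone oxidoreductase, is the largest enzyme of the mitochondrial respiratory chain, and the genes of its nuclear-encoded parts carry symbols that start with NDUF. All genes with such a current symbol were taken, each represented by its brightest probe set. Probe sets of a single gene named 41 protein-coding NDUF genes, and 3 non-coding RNAs named after an NDUF gene (NDUFB2-AS1, NDUFV1-DT and NDUFV2-AS1) also met the rule. All 44 passed the filter on dim probe sets and stand among 13781 genes tested. They comprised 33 subunits, 8 NDUFAF assembly factors and the 3 non-coding RNAs. NDUFC2, NDUFS5 and NDUFS8 lie only on probe sets that list several genes and were not analysed here. COXFA4, formerly NDUFA4, no longer carries an NDUF symbol and was left out.

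RNA came from Hep3B, a human hepatocellular carcinoma cell line, stably transfected with a plasmid. Clone D20 carried the siSDHB plasmid, labelled as a knockdown of SDHB, the subunit of complex II (succinate dehydrogenase) that holds its iron-sulfur clusters, and clone pU6-2 carried the control plasmid pU6. Both clones were grown under G418, the drug that selects for the plasmid, in a medium with pyruvate and glutamine. For each clone there were 3 HG-U133 Plus 2.0 arrays of Affymetrix, A, B and C, which gives 6 arrays with a MAS5 signal (the background-corrected, array-scaled brightness of a probe set). Each group was a single clone, so knockdown and clone cannot be told apart, and no label tells whether A, B and C were separate cultures. The p-values therefore reflect array-to-array spread alone, which may be technical. SDHB itself is not analysed here, so the knockdown was not checked on these arrays.

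The trimmed mean signal was 500.1 on all 6 arrays and the median signal lay between 86.2 and 92.4 on D20 arrays and between 77.7 and 84.1 on pU6-2 arrays. Poly-A spike-in controls, foreign RNAs used to follow labelling, were dimmer on D20 arrays by 0.21 on the log2 scale, with no overlap between the clones (two-sided exact permutation test, p = 0.1, the smallest p that 3 arrays against 3 allow). The 3′ to 5′ signal ratio of GAPDH, a sign of RNA integrity, was 1.11 to 1.25 on D20 arrays and 1.08 to 1.15 on pU6-2 arrays (exact permutation p = 0.5). Hepatocyte markers checked the labelled cell type. ALB, albumin, had a signal of 43935 ± 3964 in D20 and 43678 ± 1275 in pU6-2 (SD, n = 3 each), while AFP, alpha-fetoprotein, was at 403 ± 54.0 in D20 and 20569 ± 643 in pU6-2. Of 7 hepatocyte markers named and tested 5 fell and 1 rose, and their summed signal was 86256 to 97685 in D20 and 157395 to 161969 in pU6-2. Of 5 fibroblast markers tested 2 fell and none rose, with a summed signal of 630.1 to 861 in D20 and 1063 to 1348 in pU6-2. Neither of 2 blood markers tested was called (summed signal 108 to 172 in D20 and 203 to 286 in pU6-2), and of the endothelial markers only PECAM1 was bright enough to be tested, which rose (166 to 238 in D20 and 38.8 to 107 in pU6-2). Over all 13781 genes 20.8% fell and 23.7% rose. The part of these markers in the complex I values was not tested.

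Complex I takes electrons from NADH and hands them to ubiquinone, pumping protons across the inner mitochondrial membrane. Its N module in the matrix binds NADH and flavin, the Q module below it carries electrons along iron-sulfur clusters to the quinone, and the proximal and distal parts of the membrane arm hold the proton channels. Core subunits do the chemistry, supernumerary subunits surround them, and assembly factors build the parts together and then leave. Complex II, to which SDHB belongs, feeds the same quinone pool.

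In D20 more complex I genes fell than rose. Of the 44 genes 21 fell and 4 rose (limma, Benjamini-Hochberg adjusted p under 0.05 over all 32768 probe sets), which is 47.7% and 9.09%. Over all 32768 probe sets 36.5% were called, 17% lower and 19.5% higher. Over all 13781 genes 44.5% were called (20.8% fell and 23.7% rose), and among the 5437 genes with a mean signal of at least 1000, where 39 of the 41 protein-coding members lie, 59.7% were called (33.1% fell and 26.6% rose). Of those 39 members 21 fell and 4 rose. The falls were moderate. The median log2 fold change (D20 over pU6-2) of the 41 protein-coding members was -0.30, against 0.04 over all genes and -0.05 over the brighter ones, and the most reduced member, NDUFS3, was at 51.7% of its control signal. In bulk RNA fewer cells of a type and less RNA per cell cannot be told apart.

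The count of falls depended on how the arrays were scaled. The gap between the members and the bulk of the tested probe sets narrowed with quantile normalization. Scaling on the spike-in controls raised the median of all probe sets from 0.03 to 0.23 and that of the 41 members from -0.30 to -0.09, after which 7 members fell and 5 rose. Of all 32768 probe sets 3413 were then lower and 8979 higher. The difference between the medians of the members and of all probe sets was -0.32 as deposited and -0.17 with quantile normalization, which left 20 falls and 5 rises. Centring each array on its median gave 28 falls and 2 rises, with 7182 of all probe sets lower and 4962 higher. With that centring the difference between the medians was -0.32, and with spike-in scaling -0.31. Both scalings shift all probe sets of an array nearly alike. These differences set mostly bright members against probe sets of all signal levels. No median of the brighter genes was taken under the other scalings. The part of brightness in the value with quantile normalization was therefore not tested. Among all calls 53.5% were higher in D20 as deposited, 40.9% with median centring and 72.5% with spike-in scaling. The 7 members that fell under each of these scalings were NDUFS3, NDUFV1, NDUFS7, NDUFA5, NDUFAB1, NDUFAF3 and NDUFAF6.

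**Figure D1:**
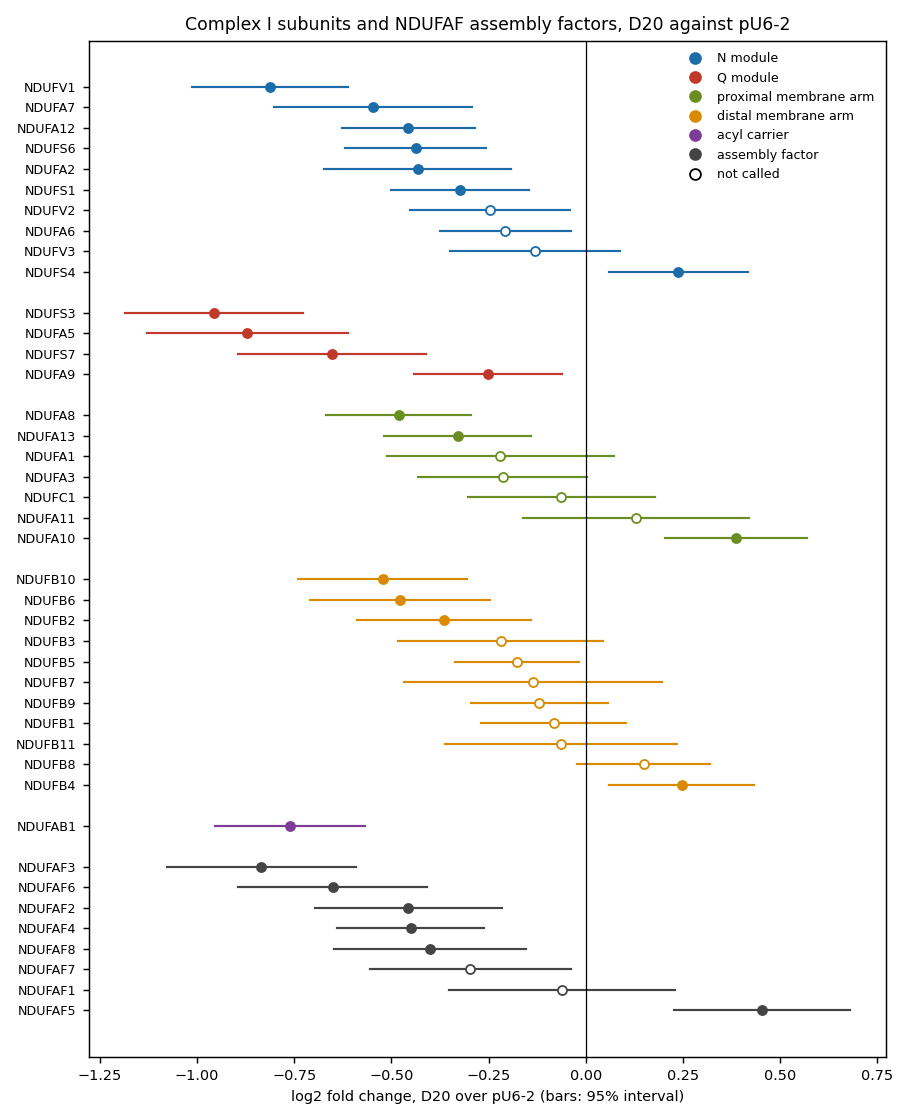
Log2 fold change (D20 over pU6-2, horizontal axis) of the 41 protein-coding members with 95% intervals from the limma fit, grouped by module, with filled points for members past the threshold. All 4 Q module genes lie below 0, and the membrane arm genes gather closer to 0.

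The promoters of the 2 most reduced and of the most increased protein-coding members are printed here because they represent the ends of that range, NDUFS3 at -0.96, NDUFA5 at -0.87 and NDUFAF5 at 0.45. They are RefSeq windows of GRCh38.p14, 250 bases before to 50 after the gene start, at chr11:47578824-47579123 (plus strand), chr7:123601602-123601901 (minus strand) and chr20:13784778-13785077 (plus strand), written 5′ to 3′. Capitals mark matches to the motif letters searched on both strands.
NDUFS3: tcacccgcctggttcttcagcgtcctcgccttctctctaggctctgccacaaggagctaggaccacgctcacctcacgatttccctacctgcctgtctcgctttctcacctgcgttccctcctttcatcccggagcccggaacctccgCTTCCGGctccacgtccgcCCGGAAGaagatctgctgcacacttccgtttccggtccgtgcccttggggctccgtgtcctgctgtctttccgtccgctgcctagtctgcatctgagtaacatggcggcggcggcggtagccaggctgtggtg
NDUFA5: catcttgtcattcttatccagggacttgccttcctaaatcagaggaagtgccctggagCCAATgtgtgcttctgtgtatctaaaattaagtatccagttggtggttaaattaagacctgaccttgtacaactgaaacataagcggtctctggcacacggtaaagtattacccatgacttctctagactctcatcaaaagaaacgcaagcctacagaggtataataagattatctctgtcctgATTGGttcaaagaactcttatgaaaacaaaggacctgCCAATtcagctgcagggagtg
NDUFAF5: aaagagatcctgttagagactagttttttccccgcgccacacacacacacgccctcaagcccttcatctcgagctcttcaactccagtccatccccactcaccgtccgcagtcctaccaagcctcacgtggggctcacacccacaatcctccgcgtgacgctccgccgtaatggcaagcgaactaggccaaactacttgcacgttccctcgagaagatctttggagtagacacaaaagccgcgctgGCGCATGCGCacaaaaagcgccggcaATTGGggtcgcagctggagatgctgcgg
The NDUFS3 window holds a pair of CCGGAAG matches, the core of ETS-family sites such as those of GABP, on opposite strands. The NDUFA5 window holds 3 CCAAT boxes and no match to the other motifs. The NDUFAF5 window holds GCGCATGCGC, a match to the NRF1 letters that reads the same on both strands, at the gene start, and 1 CCAAT box.

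NRF1, GABP, YY1 and ERR are factors known to act at promoters of respiratory chain genes. Windows were found for 38 of the 41 protein-coding members and searched beside 27305 RefSeq promoters of the same length. No limit to protein-coding genes was set on the latter. The NRF1 letters (GCGCA, any base, then GCGC) were in 18.4% of the members' windows and 6.28% of all windows, CCGGAAG in 15.8% and 10.7%, AAGATGGC (YY1) in 15.8% and 3.03%, CCAAT (NFY) in 26.3% and 35.7%, and TCAAGGTCA (ERR) in 0 members and 0.359% of all. No overlap between the motifs was removed. Among 20 members that fell and 18 that did not, NRF1 letters were in 3 and 4 windows, CCGGAAG in 4 and 2, YY1 letters in 3 and 3, and CCAAT in 5 and 5. These counts are small, and a match is a description of letters, not a site.

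The Q module was lower as far as it was measured. NDUFS3, a core subunit at the base of the matrix arm, had signals of 2596, 3431 and 3156 in D20 and 5635, 6247 and 5873 in pU6-2. The arrays of the clones lay far apart, and the log2 fold change was -0.96 ± 0.11 (SE, limma adjusted p = 1.3e-05). NDUFS7, the core subunit that holds the last iron-sulfur cluster before ubiquinone, had signals of 2328, 2185 and 1752 in D20 and 3183, 3432 and 3198 in pU6-2. It fell by 0.65 on the log2 scale without overlap (adjusted p = 5.0e-04, limma). Its call was lost when its 2 probe sets were averaged (-0.27), the other being dim and at 0.11.

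NDUFA5, a supernumerary subunit that sits against NDUFS3, had signals of 2212, 1628 and 1878 in D20 and 3746, 3135 and 3566 in pU6-2. Its log2 fold change was -0.87 ± 0.12 (SE, limma adjusted p = 8.2e-05). RefSeq lists 12 pseudogenes of NDUFA5, and how far their RNA adds to its signal was not tested. NDUFA9, a member of the short-chain dehydrogenase family at the junction with the membrane arm, had signals of 5749.7, 6751 and 5634 in D20 and 7240.5, 7322 and 6968 in pU6-2. The clones did not overlap, but the fall of 0.25 on the log2 scale was close to the threshold (adjusted p = 0.040, limma). It was not called without D20 array A or C or without any single pU6-2 array (-0.20 to -0.27). Nor was it called with quantile normalization, with spike-in scaling, without the variance trend or without the filter on dim probe sets. All 4 Q module genes tested thus fell, where 20.8% of all genes and 33.1% of the brighter ones fell. The module's median was -0.76, and 3 of its genes fell with spike-in scaling (median -0.55). With the mean of each gene's probe sets 3 fell and the median was -0.37.

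In the N module 6 of 10 genes fell (60%) and 1 rose, where 20.8% of all genes and 33.1% of the brighter ones fell. The module's median was -0.38 on the log2 scale. It was -0.11 with 4 falls with the mean of each gene's probe sets, and -0.17 with 1 fall with spike-in scaling. NDUFV1, the core subunit that binds FMN and oxidises NADH, had signals of 4182, 3789 and 3688 in D20 and 6266, 7510.5 and 6759 in pU6-2. Its log2 fold change was -0.81 ± 0.09 (SE, limma adjusted p = 1.7e-05), and it lost its call under none of the alternatives. NDUFS1, the core subunit with several iron-sulfur clusters, had signals of 3325, 3388 and 3609.5 in D20 and 4401, 4248 and 4276 in pU6-2, a log2 fold change of -0.32 ± 0.08 (SE, limma adjusted p = 0.0076). The mean over all its probe sets, the others dimmer, was 0.29 and not called. NDUFV2, the partner of NDUFV1, had signals of 3548, 3942 and 3265 in D20 and 4164, 4539 and 4036 in pU6-2. Its clones did not overlap either, yet its value of -0.25 missed the threshold (limma adjusted p = 0.061). Without D20 array B it passed the threshold (-0.32, adjusted p = 0.021, limma).

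Among the supernumerary subunits of the N module 4 fell. NDUFA7 had signals of 1159.7, 1269 and 1289 in D20 and 1622, 2093 and 1768 in pU6-2, a log2 fold change of -0.55, but 0.30 and not called when averaged with its dim other probe set. NDUFA12, a paralog of the assembly factor NDUFAF2 that takes its place late in assembly, had signals of 7048, 7925 and 7310.1 in D20 and 10337, 10423 and 9801 in pU6-2, a log2 fold change of -0.46. Each D20 array lay below each pU6-2 array for both. NDUFS6, a zinc-binding subunit, had signals of 5318, 6026 and 5291 in D20 and 7819.9, 7253 and 7440.4 in pU6-2, a log2 fold change of -0.44. NDUFA2, a small thioredoxin-like subunit, had signals of 2880.4, 3799 and 3036 in D20 and 4142, 4726 and 4189 in pU6-2, a log2 fold change of -0.43. D20 array B was the highest of its clone for both, and still below the lowest pU6-2 array. Adjusted p for these 4 lay between 5.3e-04 (NDUFA12) and 0.0079 (NDUFA2), limma, and none was called with spike-in scaling.

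NDUFS4, a subunit often mutated in Leigh syndrome, was the N module gene that rose. Its signals were 4123, 4511 and 4265 in D20 and 3728, 3557 and 3638 in pU6-2, a log2 fold change of 0.24 ± 0.08 (SE, limma adjusted p = 0.038). The difference was small beside the falls, and it did not pass the test without D20 array B or C, without any single pU6-2 array or with median centring (0.11). NDUFS4 also lost its call without the filter on dim probe sets, without the variance trend and with the mean of its probe sets. NDUFA6 (-0.21, adjusted p = 0.054) and NDUFV3 (-0.13, adjusted p = 0.35, limma) were not called. NDUFA6 was called without pU6-2 array B (-0.26).

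**Figure D2:**
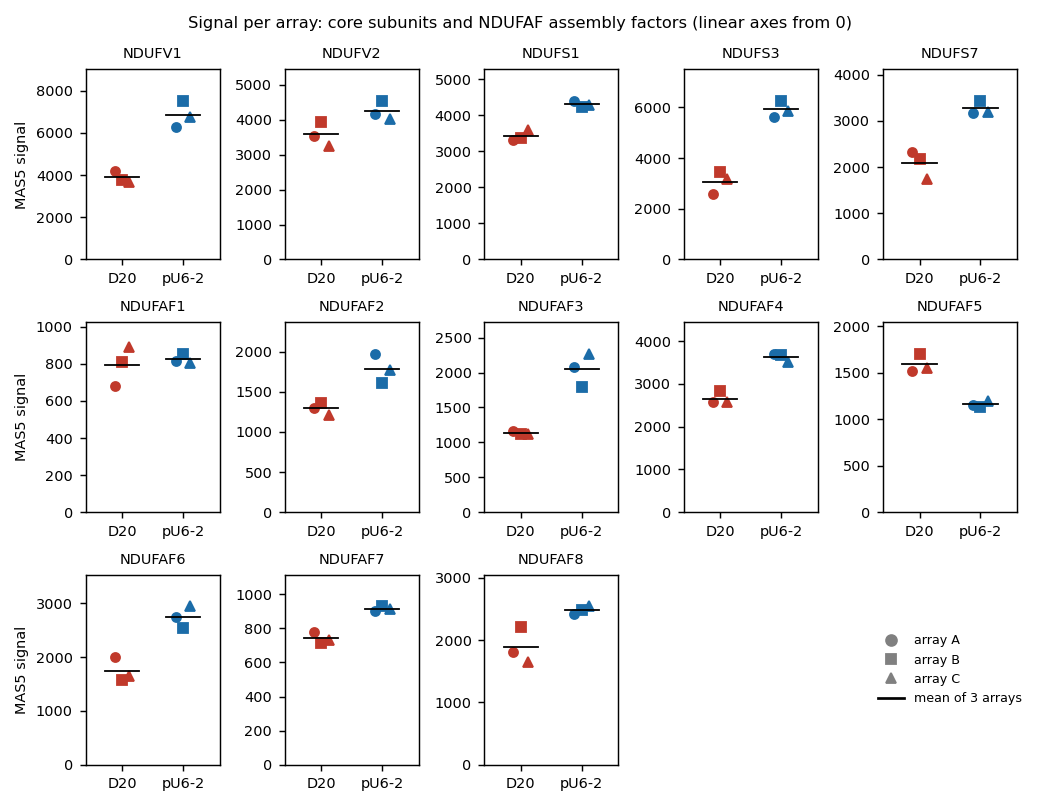
MAS5 signal per array (linear axes from 0) of the 5 core subunits and the 8 NDUFAF assembly factors, D20 on the left and pU6-2 on the right of each panel, with marker shapes for arrays A, B and C and a line for the mean of 3 arrays. The clones overlap only for NDUFAF1, and D20 is the higher clone only for NDUFAF5.

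In the membrane arm a smaller share fell, 5 of 18 genes (27.8%) against 10 of the 14 (71.4%) of the matrix arm (N and Q modules). Their medians were -0.16 and -0.44. The membrane arm share lay between the 20.8% of all genes and the 33.1% of the brighter ones that fell. This difference between the arms was not tested, and it nearly closed with the mean of each gene's probe sets, where 7 of 18 fell in the membrane arm (median -0.22) and 7 of 14 in the matrix arm (median -0.26). Without D20 array A the membrane arm median was -0.05, and without the variance trend 2 of the 18 fell, or 3 without pU6-2 array B. With spike-in scaling 0 of the 18 fell and 3 rose in the membrane arm (median 0.06, so its sign turned), and 4 of 14 fell and 1 rose in the matrix arm (median -0.22).

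In the proximal part, which joins the matrix arm, 2 of 7 genes fell (28.6%) and 1 rose. This share of falls also lay between the 20.8% of all genes and the 33.1% of the brighter ones. NDUFA8, a subunit held by disulfides in the intermembrane space, had signals of 2627, 2789 and 2841 in D20 and 3874, 3674 and 3993 in pU6-2, a log2 fold change of -0.48 ± 0.09 (SE, limma adjusted p = 7.1e-04). NDUFA13, also known as GRIM-19, had signals of 8734, 8138 and 9106 in D20 and 10255, 12091 and 10362 in pU6-2, a log2 fold change of -0.33, with the highest pU6-2 value on array B. It was not called without that array (-0.25, adjusted p = 0.051, limma) or with quantile normalization (-0.21). NDUFA10, a relative of the nucleoside kinases, rose. Its signals were 4783, 4721 and 4296 in D20 and 3622, 3459 and 3457 in pU6-2, a log2 fold change of 0.39 ± 0.08 (SE, limma adjusted p = 0.0029), which lost its call under none of the alternatives.

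NDUFA1, NDUFA3, NDUFC1 and NDUFA11, the other proximal genes, did not pass the test, with log2 fold changes of -0.22, -0.21, -0.06 and 0.13. NDUFA1 had signals of 4498, 6659 and 6895 in D20 and 6759.7, 7194 and 6718 in pU6-2, so that D20 array A alone lay well below the rest. NDUFA11, a relative of the TIM17 import proteins, had 7421, 11816 and 8532 in D20 and 7960.5, 8652 and 8293 in pU6-2, where D20 array B alone lay above the rest. NDUFA3 was called without D20 array B (-0.31).

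In the distal part, the far end of the proton pump, 3 of 11 NDUFB genes fell, 1 rose and 7 were not called, a share of falls between the 20.8% of all genes and the 33.1% of the brighter ones. The distal median of -0.14 turned to 0.07 without _s_at probe sets, which left 6 of the genes. NDUFB10 had signals of 3896, 4342 and 3572 in D20 and 5449.6, 6285 and 5251 in pU6-2, a log2 fold change of -0.52. NDUFB6 had signals of 3438, 2766 and 2894 in D20 and 4710.1, 3909.9 and 4059 in pU6-2, a log2 fold change of -0.48. Neither gene's clones overlapped (adjusted p = 0.0011 and 0.0034, limma). NDUFB2 had signals of 4635, 6134 and 5132 in D20 and 6463, 7191 and 6711 in pU6-2, a log2 fold change of -0.36 (adjusted p = 0.014, limma), which was not called without pU6-2 array B (-0.32). Without the variance trend neither NDUFB6 nor NDUFB2 was called. NDUFB4 rose, with signals of 19666, 23784 and 23379 in D20 and 18057, 19418 and 18665 in pU6-2, a log2 fold change of 0.25 (adjusted p = 0.039, limma). The lowest D20 array lay just above the highest pU6-2 array, and NDUFB4 was not called without D20 array B or C, without any single pU6-2 array or with median centring (0.12). NDUFB4 also lost its call without the filter on dim probe sets and without the variance trend. The mean of its probe sets and the exclusion of _s_at probe sets left it uncalled as well. RefSeq lists 12 pseudogenes of NDUFB4 as well.

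The 7 uncalled NDUFB genes had log2 fold changes between -0.22 (NDUFB3) and 0.15 (NDUFB8), and their 95% intervals reached at most 0.48 below and 0.32 above 0. For NDUFB5 all D20 arrays were below and for NDUFB8 all D20 arrays above those of pU6-2, while NDUFB1, NDUFB3, NDUFB7, NDUFB9 and NDUFB11 overlapped. NDUFB3 was called without pU6-2 array C (-0.36), its lowest control array.

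NDUFAB1 stands apart from the modules, since it is the mitochondrial acyl carrier protein, present in complex I and also needed for lipoic acid and iron-sulfur cluster synthesis. Its signals were 7757, 7114 and 6535 in D20 and 12646, 12538 and 11089 in pU6-2. The clones were well separated, with a log2 fold change of -0.76 ± 0.09 (SE, limma adjusted p = 2.1e-05).

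Of the 8 NDUFAF assembly factors 5 fell (62.5%) and 1 rose, where 20.8% of all genes and 33.1% of the brighter ones fell. The median of the 8 was -0.43 on the log2 scale, and under spike-in scaling it was -0.21 with 2 falls and 1 rise. With the mean of each gene's probe sets it was -0.28 with 3 falls and 1 rise. NDUFAF3 and NDUFAF4 bind each other and act together on the Q module. NDUFAF3 had signals of 1166, 1126 and 1114 in D20 and 2081, 1789.8 and 2271 in pU6-2, a log2 fold change of -0.83 ± 0.11 (SE, limma adjusted p = 7.1e-05). NDUFAF4 had signals of 2573, 2823 and 2571 in D20 and 3706, 3671 and 3522 in pU6-2, a log2 fold change of -0.45 (adjusted p = 0.0012, limma). Both were lower on every D20 array. NDUFAF4 was at -0.10 and not called with the mean of its probe sets.

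NDUFAF6, a factor of early assembly, had signals of 2012, 1581 and 1649 in D20 and 2737, 2544 and 2945 in pU6-2, a log2 fold change of -0.65 (adjusted p = 5.3e-04, limma). NDUFAF2, the chaperone of the N module, had signals of 1303, 1365 and 1215 in D20 and 1977, 1612 and 1770.1 in pU6-2, a log2 fold change of -0.46 (adjusted p = 0.0058, limma). Its paralog NDUFA12 had the same rounded value, and for both the D20 arrays lay below all control arrays.

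NDUFAF5, which hydroxylates an arginine of NDUFS7, and NDUFAF8, which is known to stabilise NDUFAF5, moved in opposite directions. NDUFAF5 had signals of 1523, 1706 and 1553 in D20 and 1151, 1133 and 1193 in pU6-2, a log2 fold change of 0.45 ± 0.10 (SE, limma adjusted p = 0.0042). NDUFAF8 had signals of 1816, 2214 and 1646 in D20 and 2425, 2483 and 2542 in pU6-2, a log2 fold change of -0.40 ± 0.11 (SE, limma adjusted p = 0.014). NDUFAF5 lost its call under none of the alternatives. NDUFAF8 lost its call without D20 array C (-0.31) or pU6-2 array C (-0.38), without the variance trend and with spike-in scaling. It also lost it with each other choice of probe set but the exclusion of _x_at probe sets.

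NDUFAF7, a methyltransferase that modifies a core subunit, had signals of 776, 714 and 733 in D20 and 900.0, 929 and 912 in pU6-2. The clones did not overlap, but the log2 fold change of -0.30 did not pass the test (limma adjusted p = 0.070). It did with quantile normalization (-0.36) and with median centring (-0.43). NDUFAF1, part of an early complex with ACAD9 and ECSIT, had signals of 681, 810.1 and 889.5 in D20 and 813, 855 and 803 in pU6-2, which overlapped, with a log2 fold change of -0.06 and a 95% interval from -0.35 to 0.23.

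**Figure D3:**
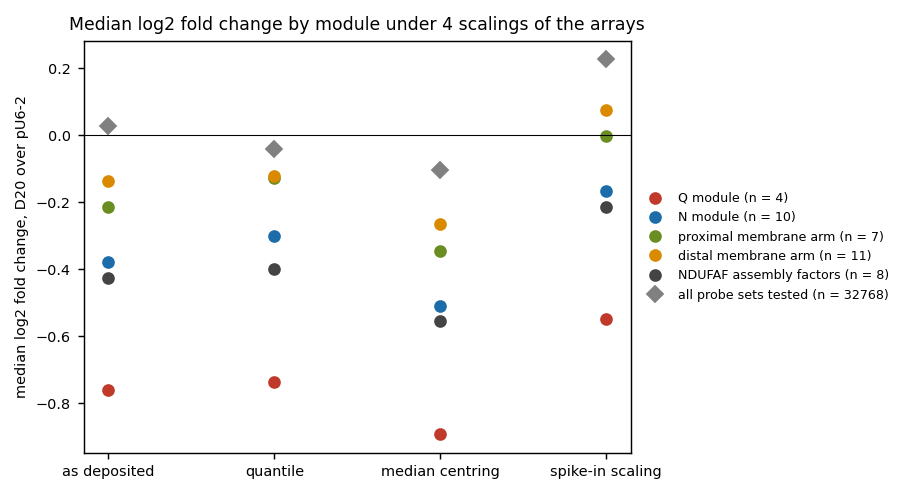
Median log2 fold change (D20 over pU6-2, vertical axis) of 4 modules and of the NDUFAF assembly factors under 4 scalings of the arrays, with grey diamonds for all probe sets tested. The Q module stays lowest, from -0.55 with spike-in scaling to -0.89 with median centring, and the distal membrane arm moves to 0.08 with spike-in scaling.

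By symbol class, 7 of 12 NDUFA genes fell and 1 rose, and 3 of 11 NDUFB genes fell and 1 rose. Of 5 NDUFS genes 4 fell and 1 rose, and of 3 NDUFV genes 1 fell. The shares of falls were 58.3% (NDUFA), 27.3% (NDUFB), 80% (NDUFS) and 33.3% (NDUFV). Over all genes 20.8% fell, and over the brighter ones 33.1%. Of the 5 core subunits measured 4 fell (median -0.65), and of 28 supernumerary subunits 12 fell and 3 rose (median -0.22). Under spike-in scaling 3 of the 5 and 2 of the 28 fell, with medians of -0.44 and -0.00. With the mean of each gene's probe sets 2 of the 5 core subunits fell (median -0.27). No test of core against supernumerary subunits was made.

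Without regard to any test, all D20 arrays lay below all pU6-2 arrays for 25 of the 41 protein-coding members and above them for 5, against 25.3% of all genes below and 28.8% above, and 37.2% and 30.4% of the brighter genes. Within D20, array B gave the highest signal for 22 of the 41 members and array A the lowest for 21. In pU6-2 array B was the highest for 20. No such count was made over all genes. The median signal of all probe sets in D20 was also highest on array B (92.4) and lowest on array A (86.2). In pU6-2 that median was highest on array A (84.1). Whether the order is particular to the members was not tested.

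The 3 non-coding RNAs were dim and uncalled. NDUFV1-DT, transcribed away from the NDUFV1 promoter, had signals of 46.0, 198 and 97.9 in D20 and 97.8, 58.1 and 39.4 in pU6-2. NDUFV2-AS1 had 123, 46.9 and 101 in D20 and 26.8, 64.2 and 92.2 in pU6-2, and NDUFB2-AS1 had 178, 188 and 74.2 in D20 and 199.5, 114 and 130.2 in pU6-2. All overlapped between the clones, with standard errors of 0.36 to 0.49 on the log2 scale, so that a change as large as that of NDUFV1 itself could not have been told from the spread here.

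Neighbouring genes on the chromosome were compared with each member. For each gene the median log2 fold change of the 10 nearest tested genes on each side was taken, other NDUF genes left out, in the order of GRCh38.p14. Several of the most reduced members lay among reduced neighbours. The neighbours' median was -0.54 for NDUFS3 and -0.60 for NDUFV1, both on chromosome 11, -0.46 for NDUFA5 on chromosome 7 and -0.48 for NDUFA12 on chromosome 12, where the gene's own value of -0.46 was no lower than that of its surroundings. For other falls the surroundings stayed near or above 0, with 0.12 for NDUFAF3, 0.01 for NDUFAB1, 0.14 for NDUFAF6 and 0.26 for NDUFS6. NDUFV2 on chromosome 18 was at -0.25 among neighbours with a median of 0.71.

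Of the 21 members that fell, 19 were below their neighbours' median, and for 7 that median was itself below -0.2. The 21 were picked for low values on these same arrays, so the count of 19 was largely set in advance. No such count was made for other genes that fell. Across the 41 protein-coding members the log2 fold change and the neighbours' median had a Pearson's r of 0.41 (Spearman's rho 0.41), against an r of 0.18 across 13769 genes. Of the 41 members 39 had a mean signal of at least 1000, while the 13769 genes include many dimmer ones. No correlation was taken over the brighter genes, so the part of brightness in this gap was not tested. Genes are not independent replicates, and the same 6 arrays underlie both axes. The copy number of these regions was not measured.

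**Figure D4:**
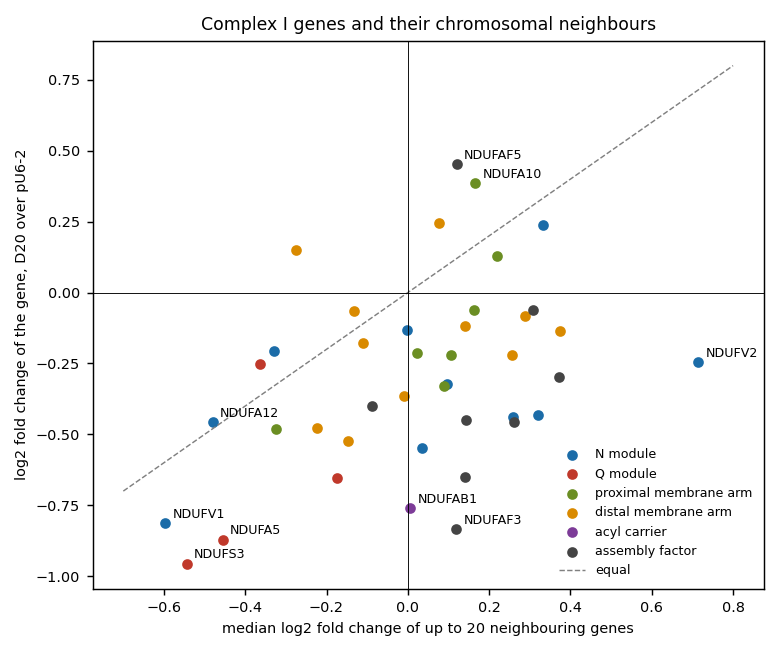
Log2 fold change of each protein-coding member (D20 over pU6-2, vertical axis) against the median of up to 20 neighbouring tested genes (horizontal axis), coloured by module, with a dashed line where the values are equal. NDUFS3, NDUFV1 and NDUFA5 lie at lower left, below the line, and NDUFV2 stands alone at right.

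The values rest on the choice of probe set for some members. Of the 44 representing probe sets 22 bear the suffix _s_at, which marks those able to match several transcripts, and none the suffix _x_at. RefSeq lists 69 NDUF pseudogenes, and 20 of the 44 members have at least 1, so that their signals may include RNA of near-identical copies. Further tested probe sets existed for 13 of the 25 called members. Of these, NDUFB2 had another probe set called in the same direction (-0.81, limma adjusted p = 3.9e-05), NDUFS1 had a dim one called in the other direction (0.80, limma adjusted p = 0.022), and for the rest no further probe set was called.

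Among uncalled members, other probe sets were called for NDUFA11 (-0.93, at signals of 178, 119 and 138 in D20 and 279.8, 319 and 263 in pU6-2), for NDUFB8 (0.37, at 4223, 3823 and 3418 in D20 and 3178, 3095 and 2618 in pU6-2) and for NDUFC1 (1.53, at 72.5, 100.2 and 137 in D20 and 61.0, 14.3 and 11.9 in pU6-2). The NDUFB8 probe set was bright and separated the clones, while the representing probe set of NDUFB8 was at 0.15 (limma adjusted p = 0.17) and its dimmest one at -0.06.

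**Figure D5:**
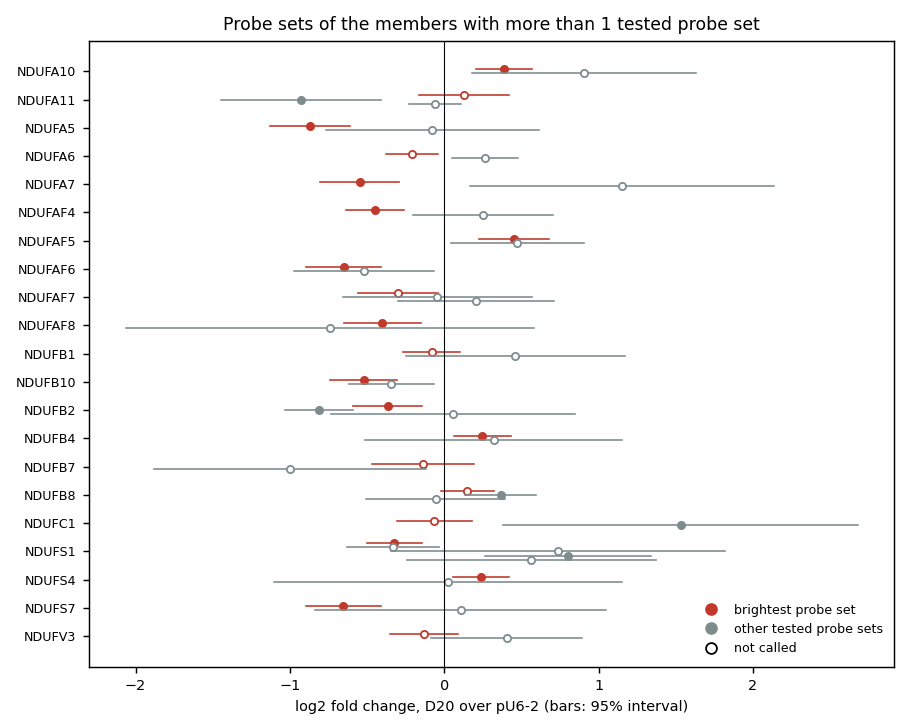
Log2 fold change (D20 over pU6-2, horizontal axis) with 95% interval of every tested probe set of the 21 protein-coding members with more than 1, the brightest in red, filled where past the threshold. Intervals of the dimmer probe sets are mostly wider, and 1 probe set each of NDUFS1, NDUFA6 and NDUFA7 has an interval on the other side of 0 from that of the brightest one. For NDUFA11 and NDUFC1 such an interval lies opposite the brightest probe set's value, whose own interval spans 0.

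Complex I assembly also needs factors with other names. Of 15 such factors 4 fell and 1 rose (median log2 value -0.12), a share of falls between the 20.8% of all genes and the 33.1% of the brighter genes. SFXN4, a sideroflexin, had signals of 957, 1073.5 and 874.5 in D20 and 1712, 1468 and 1765 in pU6-2, a log2 fold change of -0.76 (adjusted p = 3.0e-04, limma). FOXRED1, a late-acting oxidoreductase, was at -0.56, TMEM126B, a membrane partner of NDUFAF1 in early assembly, at -0.51 and OXA1L, the insertase of the inner membrane, at -0.32. COA1 rose (0.39), on a probe set able to match several families. ACAD9 (-0.13) and ECSIT (0.13), the other partners of NDUFAF1, were not called (adjusted p = 0.39 and 0.47, limma).

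Of 8 transcription factors and coactivators of respiratory chain genes tested, 3 fell and none rose, where 20.8% of all genes and 33.1% of the brighter genes fell. ESRRA, the estrogen-related receptor alpha, had signals of 843, 783 and 801 in D20 and 1555, 1707 and 1411 in pU6-2, a log2 fold change of -0.93 ± 0.12 (SE, limma adjusted p = 3.8e-05). TFAM, which packages and transcribes mitochondrial DNA, was at -0.70, also on a probe set able to match several families. YY1 was at -0.37. NRF1 (-0.28, adjusted p = 0.24), GABPA (0.09, adjusted p = 0.78) and PPARGC1A (-0.00, adjusted p = 0.99, limma) were not called. The mitochondrially encoded ND subunits were not analysed here.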

How the data were processed

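RNA of clone D20 (3 arrays) and clone pU6-2 (3 arrays) was measured on HG-U133 Plus 2.0 arrays. The deposited values are intensity values, 1 linear MAS5 signal per probe set and array, per the submitters' processing notes; the MAS5 version and scaling target were not given in the sources used here. Of 54675 probe sets, 41091 had 1 symbol in the platform's annotation, brought to current RefSeq symbols (GRCh38.p14) through the Entrez number. Signals were taken as log2(signal + 16), which understates the change of dim genes. The 62 control probe sets and the dimmest 40% of the others (mean below 43.2) were left out, leaving 32768. D20 was compared with pU6-2 by limma 3.58.1 in R 4.3.3 (lmFit, eBayes with a variance trend, two-sided, no covariate), with Benjamini-Hochberg adjustment over all 32768 and a threshold of 0.05. The fit was tested on simulated data.

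A gene is represented by its brightest tested probe set. Signals by array are given for the nuclear core subunits, all NDUFAF factors, up to 12 lower and 6 higher supernumerary subunits past the threshold, and for other genes where the spread of single arrays matters. The members, lists and modules were chosen with earlier results of these data known, and the signal of 1000 for brighter genes after the values were seen. Alternatives covered the pseudocount, filter, scaling, variance trend, replicate block, single arrays left out and choice of probe set. The number of arrays limits the precision.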

Additional observations from a re-analysis of the deposited data

How the results depend on the processing

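With pseudocounts of 1 and 64 all 44 genes kept their direction and side of the threshold. With spike-in scaling 7 NDUF genes, 5 subunits and 2 assembly factors fell. Without _s_at, _a_at and _x_at probe sets 13 of 33 NDUF genes still represented, 10 of 25 subunits and 3 of 5 assembly factors fell, fewer genes being left. Without the variance trend 10 subunits fell, and 3 assembly factors did when probe sets were averaged per gene. The count of genes that rose was 2 with no filter, with median centring and without the variance trend, and 2 to 4 with single arrays left out, where 19 to 23 genes fell.

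Called genes changed direction only with the choice of probe set. NDUFA7 was at 0.30 and NDUFS1 at 0.29 with the mean of probe sets, and NDUFS7 at 0.11 without _s_at probe sets, none of them called. Among uncalled genes the mean of probe sets gave NDUFA11 -0.29, NDUFA6 0.028, NDUFB1 0.19, NDUFC1 0.73 and NDUFV3 0.14, and no _s_at probe sets gave NDUFA11 -0.93, NDUFA6 0.26, NDUFB1 0.46 and NDUFV3 0.40. Spike-in scaling turned NDUFA6 to 0.0063, NDUFAF1 to 0.15, NDUFB1 to 0.13, NDUFB11 to 0.15, NDUFB2-AS1 to 0.12, NDUFB5 to 0.037, NDUFB7 to 0.076, NDUFB9 to 0.094, NDUFC1 to 0.15 and NDUFV3 to 0.082. Quantile normalization gave NDUFB1 0.0094 and NDUFC1 0.021, and median centring gave NDUFA11 -0.0009. With single arrays left out NDUFA11 ranged from -0.060 to 0.27, NDUFAF1 from -0.15 to 0.043, NDUFB11 from -0.20 to 0.063, NDUFB2-AS1 from -0.28 to 0.31, NDUFB7 from -0.31 to 0.041 and NDUFC1 from -0.16 to 0.034. The cause of these changes was not tested beyond the alternatives themselves.

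No label states whether the array letters pair the samples, and they were treated as unpaired. Deviations of same-lettered arrays from their clone's mean had correlations of -0.02 (A), 0.05 (B) and 0.01 (C) across probe sets. With arrays of other letters they were 0.004 to 0.02 (A), -0.03 to -0.02 (B) and -0.06 to 0.05 (C). So few arrays share each mean that these correlations cannot decide whether the letters pair the samples. With the replicate block 24 NDUF genes fell and 4 rose, and 12557 probe sets were called against 11952.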
